A study of Mus musculus with 2 samples.

Results

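The genes described here are 38 transporters, binding proteins and enzymes that carry fatty acids into heart muscle, activate them and oxidise them in mitochondria or peroxisomes. They were taken by gene symbol from a list of pathway members, out of 24542 symbols in a table of read counts per RefSeq transcript (mm10). Counts were summed per symbol, and all 38 genes were in the table and passed the filter on low counts, among 14466 genes tested. The RNA came from male C57BL/6 mice whose proximal left anterior descending (LAD) coronary artery was ligated permanently, which leaves an infarct, and was taken 7 days later. Left ventricular muscle remote from the infarct was sequenced, without scar and border. One group was NRK-2 KO, lacking nicotinamide riboside kinase 2, a muscle enzyme encoded by Nmrk2 that feeds NAD synthesis, and the other was littermate control. Both groups had the ligation, so the comparison is between genotypes after infarction. The knockout allele and the tissues it covers are not stated in the sources used here.

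Where the labels name 1 sample for each genotype, the table has 3 numbered libraries, called control 1 to 3 and KO 1 to 3 here, with 22377348 to 33086384 counted reads. Over genes, the median chi-square (1 df) between libraries of the same genotype was 3.807 to 17.357, well past counting error. Nothing says that they are separate animals, so the p-values below reflect only how far these libraries spread, and that spread may be technical. The targeted gene goes against 1 label. Nmrk2 was at 15.1, 13 and 4.78 CPM (read counts over the library total scaled by TMM for composition, times 1e+06) in the controls, and at 0.252 CPM and 0 reads in the libraries labelled KO 2 and KO 3. The library labelled KO 1 was at 27.9 CPM, above all controls. Every direction below therefore rests on libraries labelled KO. The counts of calls, the median of all the fatty acid genes, the mitochondrial and peroxisomal difference and the tested gene pair ratios are also given without the library labelled KO 1. Markers of heart muscle were abundant in all 6 libraries, with 11 cardiomyocyte genes summing to 44467.9 to 112012.1 CPM. The ventricle label is less clean for other tissue: 5 atrial genes summed to 545.2, 446.5 and 43.2 CPM in the controls and to 637.5, 152.2 and 153.1 CPM in the libraries labelled KO, with the atrial ligand Bmp10 at 0 in all of them. In control 3 and in KO 2 and KO 3 nearly all of this was Dkk3, whereas Myl7, an atrial myosin light chain, was at 204.4, 162 and 126.7 CPM in control 1, control 2 and KO 1 and at 0, 1.15 and 0.219 CPM in control 3, KO 2 and KO 3. Adipocyte genes summed to 2.96 to 927.7 CPM, with the highest values in control 3 and KO 2. The part of either tissue in the results below was not tested.

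Fatty acids are the main fuel of the adult heart. They enter through CD36 and transport proteins, travel bound to fatty acid binding proteins, and are joined to coenzyme A by acyl-CoA synthetases. Carnitine palmitoyltransferase 1 on the outer mitochondrial membrane, which malonyl-CoA inhibits, commits them to the carnitine shuttle. Inside, the beta-oxidation spiral removes acetyl-CoA units through dehydrogenation, hydration, a further dehydrogenation that reduces NAD, and thiolysis. Electrons of the acyl-CoA dehydrogenases reach ubiquinone through the electron transfer flavoprotein and its oxidoreductase. Peroxisomes run a parallel, shorter spiral for very long and dicarboxylic chains.

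Many of these genes are known targets of PPAR and ERR nuclear receptors, which recognise the hexamer AGGTCA, so their promoters are shown before their levels. RefSeq (GRCm38.p6, the build of the counts) gave 33 windows of 300 bases, from 250 before to 50 after a transcript start, for 30 of the 38 genes. On either strand, AGGTCA was present in 7 of the 33 windows (21.2%), those of Acacb, Acadm, Acadvl, Cd36, Cpt1a, Echs1 and Ucp3, against 16.3% of all 32851 windows. The longer ERR element TCAAGGTCA, which contains the hexamer, was in 0 of 33 windows against 0.423% of all. The PPAR direct repeat AGGTCANAGGTCA was in 0 of 33 against 0.0396% of all. With both so rare, 33 windows are too few for a 0 to set these promoters apart from others. Only exact matches inside the windows were counted, so sites elsewhere or with other letters were not searched. The 8 genes without a window were Fabp4, Fabp5, Cpt1b, Crat, Acaa2, Decr1, Acot13 and Hsd17b4. Each stretch below is the 250 bases before a start, 5′ to 3′ on the strand of the gene. Ucp3 and Acadm are shown as genes low in the libraries labelled KO, and Cpt1a as a gene that was not, with AGGTCA or its reverse complement in capitals.
Ucp3, plus strand, chr7:100472741-100472990: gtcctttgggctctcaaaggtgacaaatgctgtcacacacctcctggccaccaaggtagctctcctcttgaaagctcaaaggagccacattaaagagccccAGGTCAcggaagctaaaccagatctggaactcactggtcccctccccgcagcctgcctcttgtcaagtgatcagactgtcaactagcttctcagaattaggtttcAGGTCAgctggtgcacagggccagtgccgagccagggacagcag
Acadm, minus strand, chr3:153944644-153944893: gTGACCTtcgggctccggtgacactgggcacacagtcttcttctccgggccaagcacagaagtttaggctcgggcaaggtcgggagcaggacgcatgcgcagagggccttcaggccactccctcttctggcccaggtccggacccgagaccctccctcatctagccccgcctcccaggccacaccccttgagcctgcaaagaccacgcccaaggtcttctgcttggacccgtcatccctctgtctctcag
Cpt1a, plus strand, chr19:3323051-3323300: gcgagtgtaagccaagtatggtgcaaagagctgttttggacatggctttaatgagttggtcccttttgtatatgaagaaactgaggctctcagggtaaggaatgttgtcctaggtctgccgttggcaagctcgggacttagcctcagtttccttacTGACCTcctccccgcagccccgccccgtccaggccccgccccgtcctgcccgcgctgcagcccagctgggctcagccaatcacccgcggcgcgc
The hexamer lay 149 and 44 bases before the start of Ucp3, 249 before that of Acadm and 94 before that of Cpt1a. The match is thus shared by genes with large and with small fold changes in the results that follow.

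The next stretches belong to genes whose transcripts are compared within a library further on. Hadha and Hadhb, the subunits of the mitochondrial trifunctional protein, are transcribed away from each other from starts 273 bases apart on chromosome 5, and the 228 bases that their windows share are in capitals. Acsl1, the main acyl-CoA synthetase of heart, has a pair of RefSeq starts 19929 bases apart on chromosome 8. The windows of 300 bases had 74.0% G and C at the upstream start and 50% at the downstream start. Neither window held the hexamer, so neither has capitals.
Hadhb, plus strand, chr5:30155003-30155252: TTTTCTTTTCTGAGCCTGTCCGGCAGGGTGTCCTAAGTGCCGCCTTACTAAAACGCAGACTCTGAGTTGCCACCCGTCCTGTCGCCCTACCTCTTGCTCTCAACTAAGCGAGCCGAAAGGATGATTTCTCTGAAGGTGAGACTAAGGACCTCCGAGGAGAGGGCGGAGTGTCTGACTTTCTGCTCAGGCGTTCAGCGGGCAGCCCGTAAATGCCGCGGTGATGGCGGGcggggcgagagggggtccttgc
Acsl1 upstream start, plus strand, chr8:46470787-46471036: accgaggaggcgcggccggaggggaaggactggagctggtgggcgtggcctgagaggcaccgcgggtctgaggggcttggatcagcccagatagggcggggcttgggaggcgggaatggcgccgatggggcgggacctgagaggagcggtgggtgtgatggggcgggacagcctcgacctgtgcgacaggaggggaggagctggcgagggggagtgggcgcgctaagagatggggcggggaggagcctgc
Acsl1 downstream start, plus strand, chr8:46490716-46490965: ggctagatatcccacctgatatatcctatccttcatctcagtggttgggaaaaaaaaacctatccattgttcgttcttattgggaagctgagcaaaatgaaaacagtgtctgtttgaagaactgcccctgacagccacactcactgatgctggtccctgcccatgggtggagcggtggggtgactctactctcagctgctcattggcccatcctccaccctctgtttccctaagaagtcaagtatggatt

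As a group, the fatty acid genes were lower in the libraries labelled KO. The 38 genes together took 2.381%, 2.386% and 1.849% of all counted reads in the controls, and 1.296%, 0.795% and 1.233% in the libraries labelled KO, so the groups did not overlap. Of the 38, 33 had a fitted log2 fold change below 0 (49% of all genes tested did), and the median was -1.06 against 0.01 over all genes. Fabp5, Acsl3, Acsl4, Acsl5 and Cpt1a were the 5 above 0. In edgeR's quasi-likelihood test, adjusted by Benjamini-Hochberg over all 14466 genes, 7 fell (18.4% of the 38; 1.09% of all genes) and 0 rose (2.61% of all genes). A further 18 lower genes (47.4%; 5.19% of all genes) had an adjusted p from 0.05 to 0.10. At an unadjusted p under 0.05 there were 31 lower genes (81.6%; 13.5% of all genes) and 2 higher genes (5.26%; 12.3% of all genes). In 30 genes (78.9%) all 3 libraries labelled KO lay below all 3 controls, against 14.5% of all genes. In Acsl3 and Acsl5 (5.26%) all 3 lay above, against 16.4% of all genes. In bulk tissue, fewer cells of a type and less RNA per cell cannot be told apart.

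**Figure D1:**
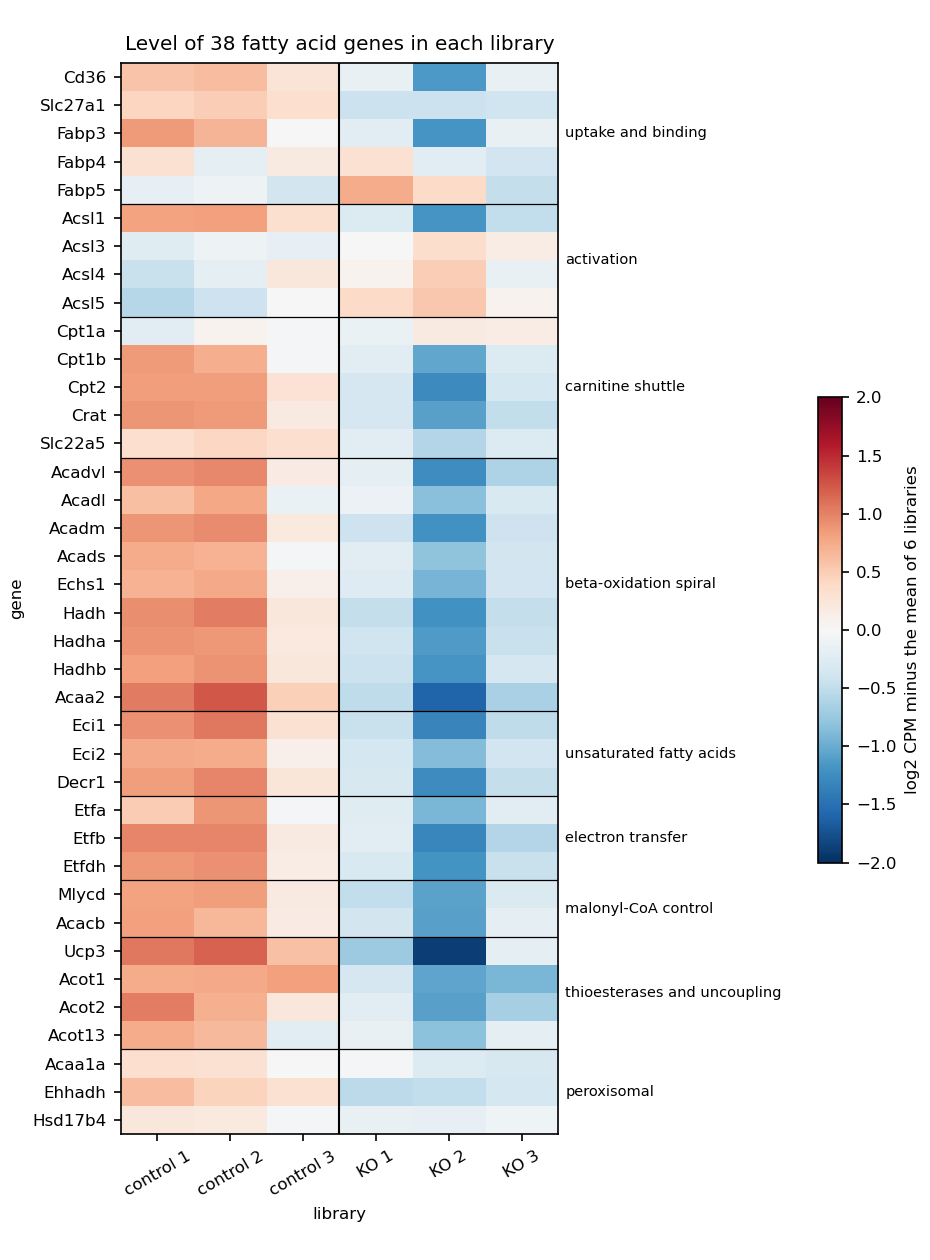
Each row is a gene and each column a library, and colour gives log2 CPM minus the gene's mean over the 6 libraries, with genes grouped by role. Most rows run from high in control 1 and control 2 through control 3 to low in KO 2, while Acsl3, Acsl4, Acsl5, Cpt1a and Fabp5 do not.

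The libraries within a genotype kept an order over most of these genes. The library labelled KO 2 was the lowest of all 6 in 29 of the 33 lower genes, and control 3 was the lowest control in 31 of them. The share of all genes with this order was not counted, and it was not particular to these genes. The cardiomyocyte markers' median log2 CPM, relative to each gene's mean over the 6 libraries, had the same lowest libraries. It was 0.67, 0.49 and -0.15 in the controls and -0.17, -0.60 and -0.18 in the libraries labelled KO. The number of calls depended on single libraries. Without the library labelled KO 1, 1 gene fell, Acot1 (0.0679% of all genes fell and 0.529% rose), the median log2 fold change was -1.17, and in 32 of the 38 genes both KO 2 and KO 3 lay below all 3 controls (84.2%; 18.8% of all genes). The log2 fold changes of single genes shifted by -0.29 (Fabp5) to 0.09 (Cpt1a) without it, with a median shift of -0.12, which took Fabp5 from 0.50 to 0.22 and Fabp4 from -0.18 to -0.40. Without control 3, 30 genes fell (12.9% of all genes did) and Acsl5 rose (11.6% of all genes did). Leaving out any of control 1, control 2, KO 2 or KO 3 left 0 calls among the 38. The adjusted p of the 7 genes then ran from 0.0595 to 0.182, and 33 genes were lower in each of these fits.

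Among the uptake and binding genes, Slc27a1 fell, Cd36 and Fabp3 were lower without passing, and Fabp4 and Fabp5 overlapped between genotypes. Slc27a1, which encodes the fatty acid transport protein FATP1 (chromosome 8, 71568927 to 71586708), was at 133.9, 139.4 and 126 CPM in the controls and at 73.7, 74.1 and 75.6 CPM in the libraries labelled KO. It was the least variable of the 7 calls, with a log2 fold change of -0.84 (SE 0.10, edgeR adjusted p = 0.0149). Cd36, the main fatty acid translocase of heart muscle, was at 2998, 3074 and 2410 CPM in the controls and 1807, 903.7 and 1824 CPM in the libraries labelled KO, which do not overlap (log2 fold change -0.90, SE 0.30, edgeR adjusted p = 0.125). From its most abundant transcript alone, 1 of 5, the log2 fold change was -1.93. That transcript held 37.1%, 35.7% and 29.2% of the gene's reads per kilobase in the controls. In the libraries labelled KO it held 29.3%, 17.9% and 3.74%, so this value also rests on how reads were divided between transcripts. Fabp3, the heart muscle binding protein, was the most abundant of the 38 genes per length, with a mean of 4939 RPKM in controls and 2477 RPKM in the libraries labelled KO. Its CPM were 3876, 3450 and 2157 in the controls against 1866, 950.6 and 1939 (log2 fold change -0.996, SE 0.35, edgeR adjusted p = 0.137).

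The other binding proteins are known from adipocytes, endothelium and macrophages, and their libraries did not separate by genotype. Fabp4 was at 491, 346.5 and 452.3 CPM in the controls and 490.7, 345.4 and 305.5 CPM in the libraries labelled KO (log2 fold change -0.18, SE 0.23, edgeR adjusted p = 0.665). Fabp5 was at 39.7, 41.3 and 34.6 CPM in the controls, and at 74.1, 57.7 and 31.9 CPM in the libraries labelled KO, the last of which was below all controls (log2 fold change 0.50, SE 0.29, edgeR adjusted p = 0.319). Summed adipocyte markers were at 116.5, 57.9 and 927.7 CPM in the controls and 239.1, 442.7 and 2.96 CPM in the libraries labelled KO. Summed macrophage markers were at 596, 816.8 and 1825 CPM in the controls and 1518, 2183 and 1337 CPM in the libraries labelled KO. Summed endothelial markers were at 1137 to 1523 and 1184 to 1489 CPM. The part of these cell types in the Fabp4 and Fabp5 values was not tested.

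The synthetases that activate fatty acids went in different directions. Acsl1, the heart's main isoform, was at 1515, 1541 and 1085 CPM in the controls and at 724, 386.5 and 618.5 CPM in the libraries labelled KO, a separation of the groups that did not pass the test (log2 fold change -1.26, SE 0.28, edgeR adjusted p = 0.0599). Acsl5, an isoform of intestine and other epithelia, was at 44.3, 49.5 and 66.3 CPM in the controls and 86.3, 95.6 and 69.2 CPM in the libraries labelled KO. Its lowest value under the KO label was just above control 3 (log2 fold change 0.65, SE 0.19, edgeR adjusted p = 0.0986). Acsl3 and Acsl4, isoforms linked to lipid droplets and to arachidonate, had log2 fold changes of 0.35 and 0.26 (edgeR adjusted p = 0.187 and 0.505), which became 0.07 and 0.85 from the most abundant transcript of each gene alone. Within the controls, the share of that transcript ran from 47.1% to 100% in Acsl3 and from 3.44% to 69.6% in Acsl4, so the last 2 values are uncertain. Per length, Acsl1 was the most abundant in both genotypes, at 354.1 and 147.8 RPKM against 3.67 to 16.9 RPKM for the others in controls.

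In the carnitine shuttle, the carnitine transporter gene Slc22a5 fell and Cpt1a did not follow its muscle counterpart Cpt1b. Slc22a5, which encodes OCTN2 (chromosome 11, 53864542 to 53891703), was at 33, 34.5 and 32.8 CPM in the controls and 22.2, 17.4 and 21.5 CPM in the libraries labelled KO (log2 fold change -0.71, SE 0.13, edgeR adjusted p = 0.0407). Cpt1b, the muscle isoform of carnitine palmitoyltransferase 1, was at 1069, 984.5 and 585.8 CPM against 505.6, 288.4 and 490.3 CPM (log2 fold change -1.04, SE 0.31, edgeR adjusted p = 0.0984). Crat, the carnitine acetyltransferase that buffers acetyl-CoA, was at 642, 630.1 and 395.2 CPM against 276, 164.8 and 247 CPM (log2 fold change -1.28, SE 0.27, edgeR adjusted p = 0.0545). In both, each library labelled KO was below each control. Cpt2, which rebuilds acyl-CoA inside the mitochondrion, had a log2 fold change of -1.27 (edgeR adjusted p = 0.0629). Cpt1a, the liver-type isoform that is also found in fetal heart, was at 88.9, 107.6 and 99.9 CPM in the controls and 94, 116.3 and 114.4 CPM in the libraries labelled KO, which overlap (log2 fold change 0.13, SE 0.13, edgeR adjusted p = 0.574).

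All 9 genes of the mitochondrial beta-oxidation spiral were lower (49% of all genes), 8 of them without overlap between genotypes (14.5% of all genes). The median log2 fold change of the 9 was -1.31, and 2 fell (1.09% of all genes). Acaa2, the medium-chain 3-ketoacyl-CoA thiolase that ends each turn, had the largest change of the 38 genes. It fell from 1057, 1218 and 714 CPM in the controls to 363.7, 170.6 and 327.3 CPM in the libraries labelled KO (log2 fold change -1.79, SE 0.34, edgeR adjusted p = 0.0421). Hadh, the short-chain 3-hydroxyacyl-CoA dehydrogenase that reduces NAD (chromosome 3, 131233420 to 131272101), fell from 583.7, 621.9 and 357.8 CPM to 220.7, 131.8 and 220.2 CPM (log2 fold change -1.45, SE 0.29, edgeR adjusted p = 0.0478). The groups lay well apart in both, although control 3 was far below the other controls. Hadhb, the thiolase subunit of the trifunctional protein and the most abundant of the 9 genes per length (1323 RPKM in controls), was at 2982, 3151 and 1980 CPM against 1260, 742.5 and 1338 CPM (log2 fold change -1.28, SE 0.30, edgeR adjusted p = 0.0665). The smallest difference was in Acadl, the long-chain acyl-CoA dehydrogenase, at 704.2, 793.7 and 423.5 CPM in the controls against 427.2, 259.9 and 376.6 CPM. Here the library labelled KO 1 was above control 3 (log2 fold change -0.85, SE 0.29, edgeR adjusted p = 0.126). The remaining genes, the dehydrogenases Acadvl, Acadm and Acads for very long, medium and short chains, the hydratase Echs1 and the trifunctional subunit Hadha, had log2 fold changes of -1.35, -1.34, -0.96, -1.04 and -1.31 (edgeR adjusted p from 0.0593 to 0.0803).

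**Figure D2:**
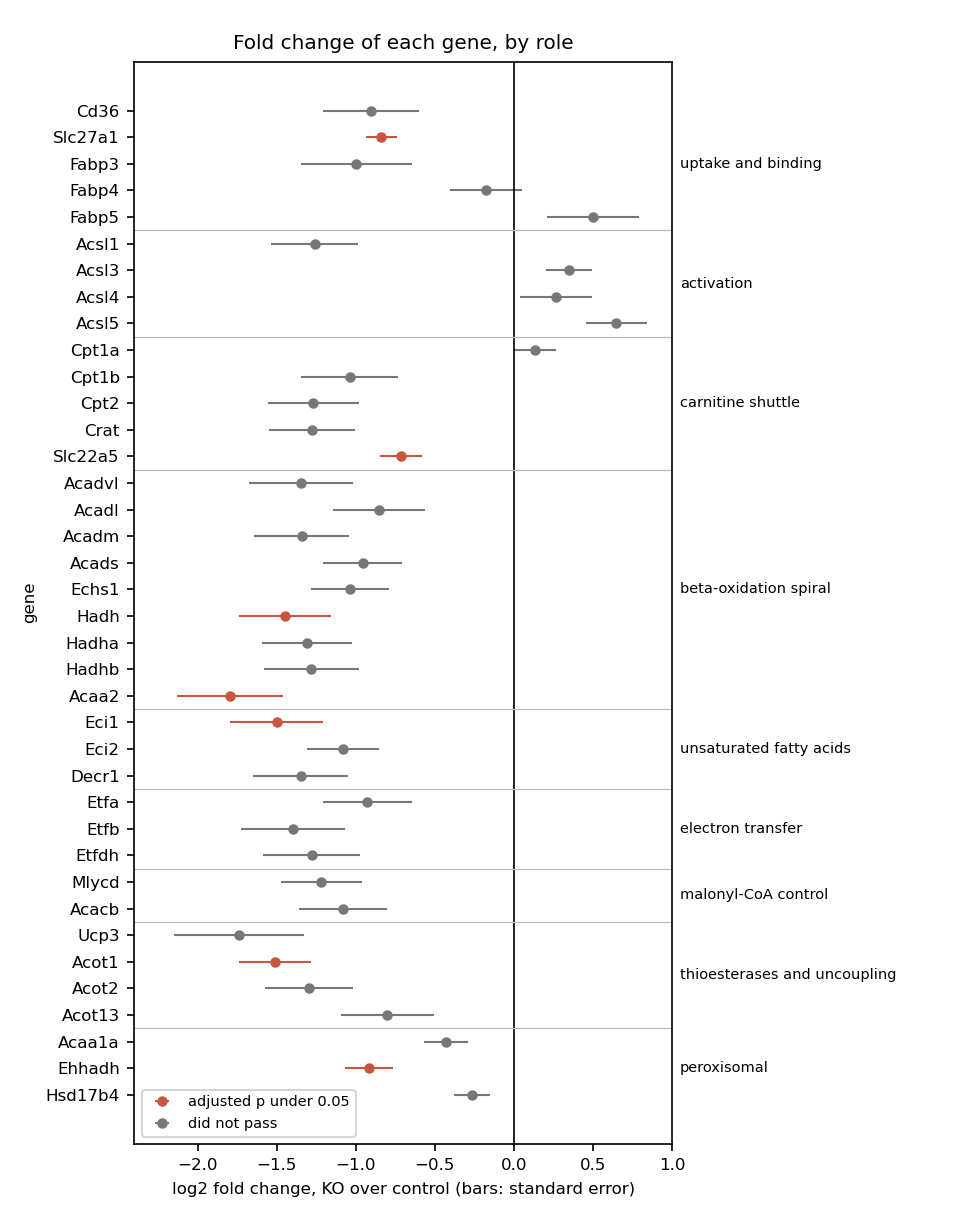
Points give the fitted log2 fold change of each gene, libraries labelled KO over control (n = 3 each), with bars for the standard error and red for an adjusted p under 0.05. The 7 red genes lie between -1.79 and -0.71, and the 5 genes above 0 belong to uptake and binding, activation and the carnitine shuttle.

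The enzymes that prepare unsaturated fatty acids for the spiral followed it. Eci1, the mitochondrial enoyl-CoA isomerase (chromosome 17, 24426683 to 24439316), fell from 311.6, 343.6 and 203.9 CPM to 121.1, 66.5 and 116.1 CPM (log2 fold change -1.50, SE 0.29, edgeR adjusted p = 0.0447). Eci2, the isomerase shared by mitochondria and peroxisomes, was at 218.2, 215.6 and 139.4 CPM against 101.4, 70.6 and 99.6 CPM, without overlap (log2 fold change -1.08, SE 0.23, edgeR adjusted p = 0.0548). Decr1, the dienoyl-CoA reductase, had a log2 fold change of -1.35 (edgeR adjusted p = 0.0619).

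None of the 3 electron transfer genes passed the test, though all libraries labelled KO lay below all controls in each (14.5% of all genes). Etfdh, the oxidoreductase that hands electrons to ubiquinone, was the most abundant per length, at 952, 978.3 and 576.4 CPM against 422.9, 227.3 and 383 CPM (log2 fold change -1.28, SE 0.31, edgeR adjusted p = 0.069). Etfb, the beta subunit of the flavoprotein, was at 356, 358.3 and 206.1 CPM against 154.7, 73.6 and 121 CPM (log2 fold change -1.40, SE 0.33, edgeR adjusted p = 0.0666). Etfa, its alpha subunit, was at 215.7, 279.5 and 148.9 CPM against 128.5, 79.9 and 130.3 CPM (log2 fold change -0.93, SE 0.28, edgeR adjusted p = 0.104).

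The enzymes on both sides of malonyl-CoA were lower together. Acacb, the acetyl-CoA carboxylase that makes malonyl-CoA at the mitochondrial surface, was at 578.4, 516.7 and 366 CPM in the controls and 252.9, 153.4 and 285.1 CPM in the libraries labelled KO (log2 fold change -1.08, SE 0.28, edgeR adjusted p = 0.0775). Mlycd, the decarboxylase that removes malonyl-CoA, was at 125.8, 128.5 and 81.7 CPM against 51.2, 34.4 and 59 CPM (log2 fold change -1.22, SE 0.26, edgeR adjusted p = 0.0539). Neither passed the test, and all libraries labelled KO lay below all controls in both (14.5% of all genes).

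Of the thioesterases, which release fatty acids from coenzyme A, and the uncoupling protein, Acot1 fell. Acot1, a cytosolic enzyme (chromosome 12, 84009502 to 84017669), fell from 15.8, 16.1 and 16.8 CPM to 7.49, 4.56 and 5.04 CPM (log2 fold change -1.51, SE 0.23, edgeR adjusted p = 0.0268). It is the call that held without the library labelled KO 1 (edgeR adjusted p = 0.0367). Acot1 and its mitochondrial neighbour Acot2 are near-identical copies, and how reads common to them were divided is not stated in the sources used here, so the split between them is uncertain. Acot2 itself had a log2 fold change of -1.30 (edgeR adjusted p = 0.058). Ucp3, the uncoupling protein of muscle mitochondria, was at 33, 36 and 23.9 CPM in the controls and 9.59, 4.31 and 14 CPM in the libraries labelled KO. All libraries labelled KO were below all controls, but the gene did not pass (log2 fold change -1.74, SE 0.41, edgeR adjusted p = 0.0674). Acot13 was at 191.1, 179.5 and 97.8 CPM against 102.9, 65.2 and 100.9 CPM, where control 3 lies below 2 libraries labelled KO (log2 fold change -0.80, SE 0.29, edgeR adjusted p = 0.148).

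In peroxisomes, Ehhadh fell and the other members differed little. Ehhadh, the bifunctional hydratase and dehydrogenase of straight chains (chromosome 16, 21761285 to 21787834), fell from 20.1, 17.9 and 16.1 CPM to 9.11, 9.26 and 10.3 CPM (log2 fold change -0.91, SE 0.15, edgeR adjusted p = 0.0331). Hsd17b4, the other bifunctional enzyme and the most abundant of the 3 per length, was at 137.5, 134 and 114.6 CPM against 106, 104.6 and 110.4 CPM (log2 fold change -0.27, SE 0.12, edgeR adjusted p = 0.204). Acaa1a, the peroxisomal thiolase, had a log2 fold change of -0.43 (SE 0.14, edgeR adjusted p = 0.118), and it too has a close paralog, Acaa1b, that may share reads. All libraries labelled KO were below all controls in each of the 3 (14.5% of all genes), but by small margins in the last 2.

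The mitochondrial and peroxisomal steps were then set side by side, with 21 members assigned to mitochondria and 3 to peroxisomes. The median log2 fold change of the mitochondrial members was lower than that of the peroxisomal members by 0.85 (a difference of -0.85). With 3 peroxisomal members, their median is the value of 1 gene, Acaa1a (-0.43). Ehhadh (-0.91) was lower than the mitochondrial Acadl (-0.85), Acot13 (-0.80) and Cpt1a (0.13), and the remaining mitochondrial members were lower than Ehhadh. The mitochondrial members' median level, as log2 CPM relative to each gene's mean over all libraries, was 0.87, 0.88 and 0.18 in the controls and -0.30, -1.19 and -0.41 in the libraries labelled KO. The peroxisomal members' median level was 0.33, 0.30 and 0.00 in the controls and -0.14, -0.27 and -0.33 in the libraries labelled KO. Within a library, the mean of the mitochondrial members minus that of the peroxisomal members was 0.41, 0.54 and 0.06 in the controls and -0.08, -0.79 and -0.14 in the libraries labelled KO. The groups did not overlap, but control 3 and the library labelled KO 1 lay close together, and the library labelled KO 2 stood far below. Without the library labelled KO 1 the difference of the median log2 fold changes was -0.91. No test was made, since genes are not replicates.

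**Figure D3:**
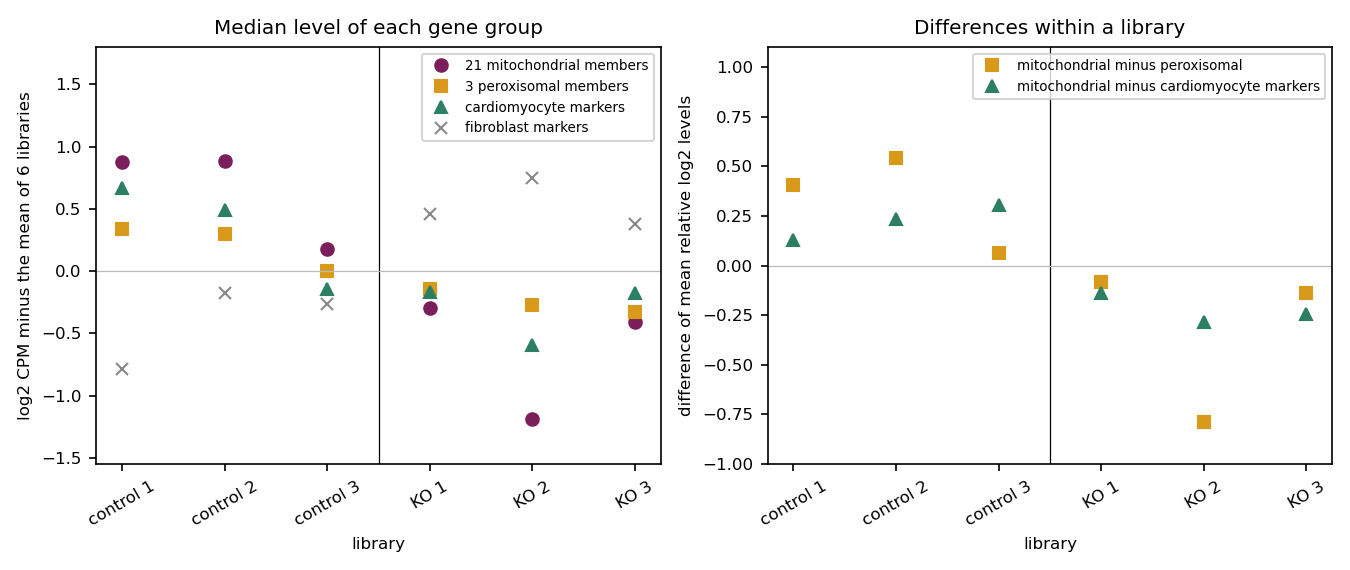
The left panel shows the median level of the mitochondrial members, the peroxisomal members, cardiomyocyte markers and fibroblast markers in each library, as log2 CPM minus each gene's mean over the 6 libraries. The right panel shows differences of mean levels within a library, where mitochondrial minus cardiomyocyte markers runs from 0.13 to 0.30 in the controls and from -0.28 to -0.14 in the libraries labelled KO.

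Heart muscle transcripts were lower too. All 11 cardiomyocyte markers had a fitted log2 fold change below 0 (49% of all genes did). The median was -0.70 and the range ran from -1.52 (Tnni3) to -0.12 (Mybpc3). In 6 of the 11, all libraries labelled KO lay below all controls (14.5% of all genes). The test was passed by 0 of them (1.09% of all genes fell and 2.61% rose). The markers' median relative level was 0.67, 0.49 and -0.15 in the controls and -0.17, -0.60 and -0.18 in the libraries labelled KO. Summed fibroblast markers were at 2627, 6064 and 5496 CPM in the controls and 11715.8, 13906.1 and 11676.5 CPM in the libraries labelled KO. Of these 6 genes, Postn, a matrix protein of activated fibroblasts, passed the test (log2 fold change 2.84). Tcf21, Col1a1 and Lum did not pass (1.41, 1.24 and 0.94). Pdgfra and Dcn differed little (0.25 and 0.12), with overlapping groups, so the sum does not give the number of fibroblasts. The fatty acid genes were therefore also expressed relative to the mean of the cardiomyocyte markers in each library, a quantity chosen after the data had been seen. On that scale the mitochondrial members were at 0.13, 0.23 and 0.30 in the controls and at -0.14, -0.28 and -0.25 in the libraries labelled KO.

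Gene by gene on that scale, 23 of the 38 (60.5%) were below all controls in all 3 libraries labelled KO, against 2.85% of all genes tested, and 17 of these were mitochondrial. Acsl3 and Acsl5 were above all controls, against 37.5% of all genes. The median difference was -0.54 for the mitochondrial members and 0.34 for the peroxisomal members. Of the genes with a lower value, Ucp3 and Acaa2 differed most, at -1.11 and -1.07, while Acsl5 was higher by 1.42. Without the library labelled KO 1, the count of genes below all controls was 23 again (3.56% of all genes), 17 of them mitochondrial. The count depended on which markers formed the reference, however. Tnni3, Pln, Myl2 and Myl3, with log2 fold changes from -1.52 to -1.18, were as low as many of the fatty acid genes, and against these 4 alone 2 of the 38 genes, Acaa2 and Eci1, were below all controls (0.449% of all genes) and the median difference of the mitochondrial members was 0.02. Against the other 7 markers, with log2 fold changes from -0.99 to -0.12, 27 genes were below all controls (6.38% of all genes) and the median difference was -0.86. These references were also chosen after the data had been seen. They split the markers by the same fold changes, so a smaller difference against the 4 and a larger one against the 7 were set by that choice. On the scale of all 11 markers, the calls in Slc27a1, Slc22a5 and Ehhadh were not carried over: their differences were -0.07, 0.04 and -0.15, with overlapping groups. The share of the lower values that fewer heart muscle cells would give was not tested.

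Ratios of related isoforms within a library do not depend on depth or scaling. They can depend on the mix of cells, since both genes of a pair need not come from the same cells. Reads per kilobase of Cpt1a were 5.30%, 6.85% and 10.3% of the sum of Cpt1a and Cpt1b in the controls, and 11.1%, 21.4% and 13.6% in the libraries labelled KO. The log2 ratio of Cpt1a to Cpt1b was higher by 1.17 in the libraries labelled KO, that of Acsl4 to Acsl1 by 1.54 and that of Fabp5 to Fabp3 by 1.44. The groups did not overlap in any of these 3 ratios, and each had an exact 2-sided permutation p = 0.1, the smallest that 3 against 3 libraries allow (0.1 after Benjamini-Hochberg adjustment over the 3). Fabp5 to Fabp3 came close to overlapping, at -6.53 in control 3 and -6.50 in the library labelled KO 3. Without the library labelled KO 1 the differences in the Cpt1a to Cpt1b ratio, the Acsl4 to Acsl1 ratio and the Fabp5 to Fabp3 ratio were 1.41, 1.76 and 1.33. From the most abundant transcript of each gene alone, the Acsl4 to Acsl1 ratio differed by 3.38. The Acsl4 transcript used held 3.44%, 69.6% and 33.6% of its gene's reads per kilobase in the controls, so that value is uncertain. None of the 6 genes passed the test alone: the denominators had log2 fold changes below 0 and the numerators above 0. Relative to all the cardiomyocyte markers, Cpt1b, Acsl1 and Fabp3 differed by -0.27, -0.53 and -0.26, and Cpt1a, Acsl4 and Fabp5 by 0.89, 1.03 and 1.18. The part of the cell mix in these ratios was not tested.

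**Figure D4:**
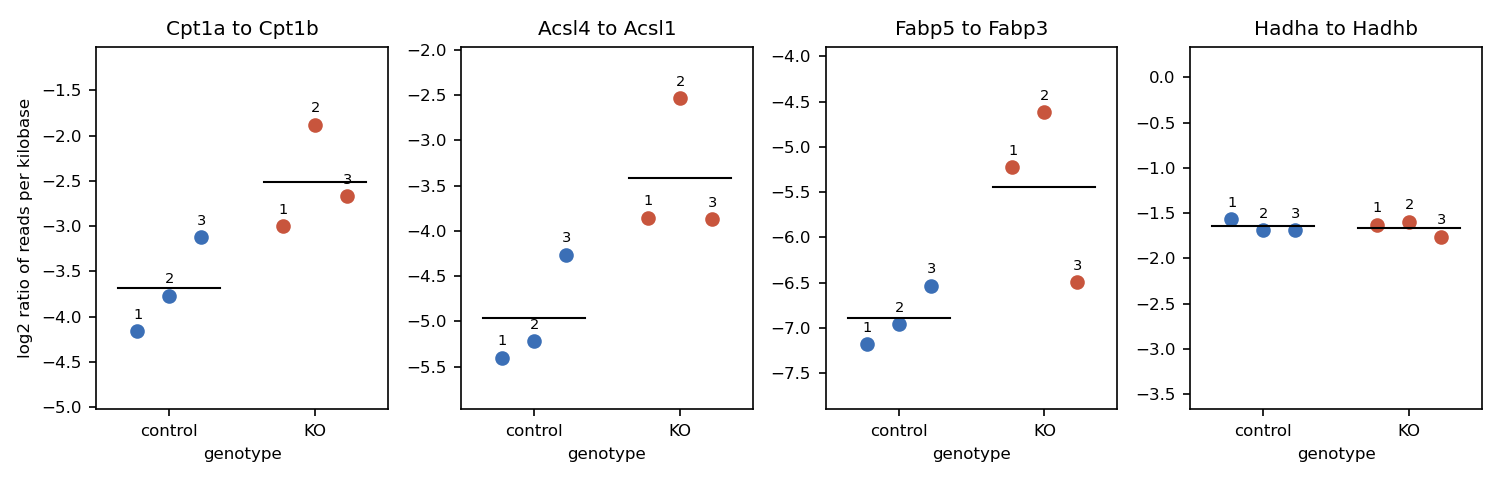
Each panel shows the log2 ratio of reads per kilobase of a gene pair in every library, with library numbers above the points, bars for group means and the same span of 4 log2 units on each vertical axis. The first 3 ratios are higher in the libraries labelled KO, and Hadha to Hadhb is nearly level.

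A pair chosen after its values had been seen differed from these. Hadha and Hadhb, whose windows share the bases printed in capitals above, had a ratio that varied little: Hadha was 25.2%, 23.7% and 23.7% of their sum of reads per kilobase in the controls and 24.5%, 24.9% and 22.8% in the libraries labelled KO. The log2 ratio differed by -0.01, with an SD of 0.07 in controls and 0.09 in the libraries labelled KO. Enzymes within the spiral did not all move in step, however. The log2 ratio of Acaa2 to Acadl, also chosen afterwards as the genes of largest and smallest change, was 0.962, 0.995 and 1.13 in the controls and 0.15, -0.23 and 0.17 in the libraries labelled KO.

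Transcript starts could be compared in Acsl1, which was chosen for this after its values had been seen. The transcript from the downstream start was at 1144, 1215 and 771.2 CPM in the controls and 507.4, 174.9 and 380.5 CPM in the libraries labelled KO, or 33.9% of the control mean. The transcript from the upstream start, whose promoter is rich in G and C, was at 370.5, 325.5 and 313.9 CPM in the controls and 216.6, 211.5 and 238 CPM in the libraries labelled KO, or 66% of the control mean. Its share of the gene's reads per kilobase was 24.5%, 21.1% and 28.9% in the controls and 29.9%, 54.8% and 38.5% in the libraries labelled KO. The groups did not overlap, but control 3 and the library labelled KO 1 were 1 percentage point apart. Of the 24 transcripts of the 8 members with more than 1, the share separated by genotype in 2 as lower and in 3 as higher. Both Acsl1 transcripts are among these, and their shares mirror each other. The 2 transcripts share most of their length and the method that divided reads between them is not stated in the sources used here, so these shares are less certain than gene sums.

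**Figure D5:**
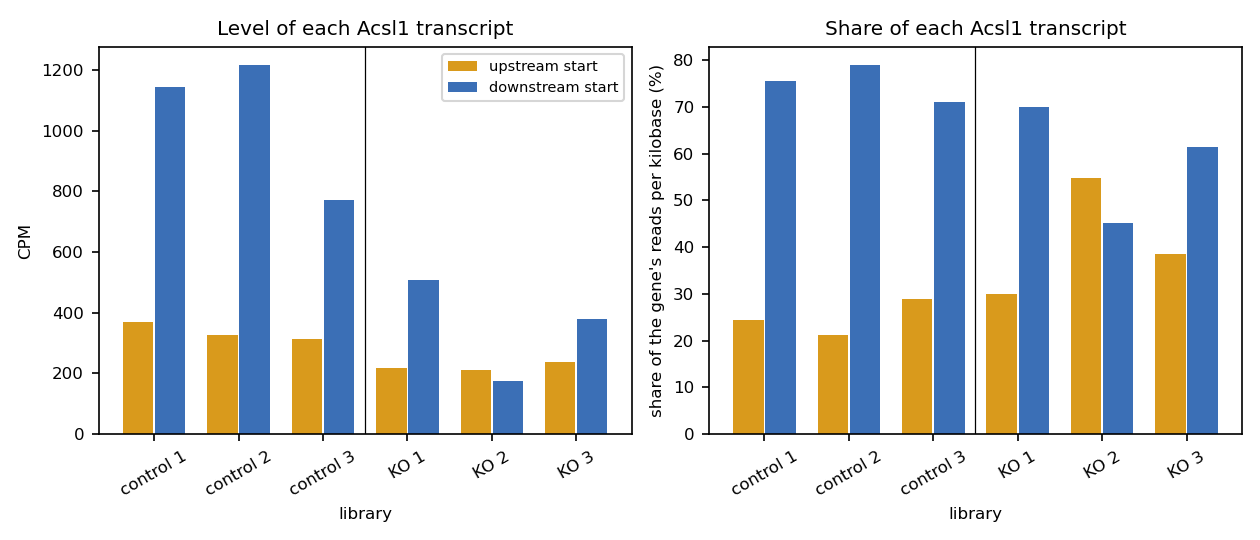
Bars show CPM (left) and the share of the gene's reads per kilobase (right) of the Acsl1 transcripts from the upstream and the downstream start in each library. The downstream transcript is the taller bar in all libraries except KO 2, where the upstream transcript holds 54.8%.

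Other genes around the pathway were lower in most cases. Of 23 further genes tested from a list around mitochondrial fatty acid oxidation, 22 were lower (49% of all genes tested were). The list is broader than beta-oxidation. It also holds Pcca, Pccb, Mut and Mmab, of propionate and cobalamin metabolism, and Mcat and Mecr, of mitochondrial fatty acid synthesis. The median log2 fold change was -0.79, and 3 fell (1.09% of all genes did). Those were Ech1, the dienoyl-CoA isomerase (1302 ± 321.8 to 364.7 ± 132.7 CPM, SD, n = 3 libraries each), Hsd17b10, which acts on branched-chain and short acyl-CoAs, and Mmab, of cobalamin metabolism (log2 fold changes -1.83, -0.99 and -0.93). Slc25a20, the carnitine carrier of the inner membrane, was at 259.9, 259.6 and 166.4 CPM against 124.1, 79.3 and 119.3 CPM and did not pass (log2 fold change -1.09, edgeR adjusted p = 0.0631). Of 37 further peroxisomal genes, 30 were lower (49% of all genes), with a median of -0.39. The test was passed by 0 of them, while 1.09% of all genes fell and 2.61% rose. The 3 with the smallest p were Pxmp2, a channel of the peroxisomal membrane, the sterol carrier Scp2 and the phytanoyl-CoA hydroxylase Phyh (log2 fold changes -1.63, -0.65 and -1.05, edgeR adjusted p = 0.0528, 0.0648 and 0.0794).

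Among 21 regulators of the pathway, 17 were lower (49% of all genes) and 2 fell (1.09% of all genes), with a median log2 fold change of -0.48. Rxrg, a partner of the PPARs, fell from 66 ± 13.4 to 27.7 ± 7.11 CPM, and Klf15, a factor that drives cardiac lipid use, from 50.6 ± 10 to 19.1 ± 4.07 CPM (SD, n = 3 libraries each; log2 fold changes -1.26 and -1.40, edgeR adjusted p = 0.0442 and 0.0259). Ppara, the main PPAR of heart, was at 146.9, 156.6 and 105.1 CPM in the controls and 71.9, 40.2 and 66.9 CPM in the libraries labelled KO, which do not overlap (log2 fold change -1.19, edgeR adjusted p = 0.058). Its coactivator Ppargc1a was at 123.5, 144 and 91.2 CPM against 63.5, 41.2 and 73.1 CPM (log2 fold change -1.01, edgeR adjusted p = 0.075). Of 32 genes of lipid supply, storage and lipolysis, 25 were lower (49% of all genes), with a median of -0.52, and 4 fell (1.09% of all genes). These were the triglyceride lipase Pnpla2, the lipid droplet coat Plin4, the acyltransferase Dgat2 and the carboxylesterase Ces1d (log2 fold changes -1.01, -0.91, -1.60 and -2.42). Plin4 is also expressed in fat cells, and adipocyte markers were highest in control 3, where Plin4 was at 409.9 CPM against 352.8 and 376.8 CPM in the other controls. Lpin1 stands on 2 of these lists. Calls in the 4 lists also depended on single libraries. Without the library labelled KO 1 they numbered 0, 0, 0 and 1, the last being Ces1d, when 0.597% of all genes were called, and without control 3 they numbered 18, 12, 10 and 16, when 24.6% of all genes were called. Leaving out any of the other libraries left 0 or 1 in each list.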

How the data were processed

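Total RNA of remote left ventricle went into stranded libraries (TruSeq), per the labels' protocols. The names HISAT2, Bowtie2 and mm10 appear without role or version, per the submitters' processing notes. How reads were counted, whether strand was used, the annotation release and the division of reads shared by transcripts are not stated in the sources used here. Whole-number read counts and FPKM values for 36780 RefSeq transcripts in 6 libraries were deposited by the authors and, per the file headers, transcript lengths in bases as a further property. Columns beginning with C were assigned to the control sample and those beginning with KO to the NRK-2 KO sample.

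Counts were summed per gene symbol and tested with edgeR 4.0.16 under R 4.3.3 (quasi-likelihood, TMM, filterByExpr, Benjamini-Hochberg over all genes tested, threshold 0.05). CPM and RPKM use library totals times TMM factors, and RPKM adds reads per kilobase over transcripts. "Rose" and "fell" mark genes past the threshold. Values per library are given for genes past the test, the most abundant per length and the extremes of fold change in each role group. Of the other lists, the genes past the test are named, or otherwise the 3 with the smallest p at a mean of at least 5 CPM. Cd36, Slc25a20, Ppara and Ppargc1a were named after their values were seen. The members, their role groups, 4 related lists and 7 marker lists were chosen with earlier results of these data known. Alternatives were other scalings and filters, DESeq2 1.42.0, limma 3.58.1 on log2(FPKM + 1) and log2(FPKM + 0.1), the most abundant transcript alone, a block for the library number, and leaving out each library. References of 4 and of 7 cardiomyocyte markers, split by their fold change in these data, were added after the data had been seen. Counting intervals are not given, since the spread between libraries exceeds counting error.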

Additional observations from a re-analysis of the deposited data

How the results depend on the processing

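The direction of the 38 genes did not depend on the settings tried: in 608 fits of single members under 16 alternatives, 0 changed direction, and 33 members were lower in every fit. The count of members past the test did depend on them. Against 7 in the edgeR fit described (535 genes in all), it was 5 (423) with no filter on low counts. It was 7 (498) with DESeq2 size factors in edgeR and 10 (559) with upper quartile scaling. It was 14 (632) with library totals alone, 20 (786) with a filter of a mean of at least 10 CPM and 32 with DESeq2 (31 lower and Acsl5 higher, among 2445 genes). With limma it was 19 (864) on log2(FPKM + 1) and 19 (807) on log2(FPKM + 0.1), and with the most abundant transcript alone 1 (172 genes, Slc27a1). With each library left out in turn it ran from 0 to 31, among 3 to 3628 genes in all. Correlations of deviations for same-numbered libraries were 0.307, -0.33 and -0.352. Control 1 correlated best with KO 1, control 2 with KO 3 (0.262) and control 3 with KO 2 (0.582). With 3 libraries per genotype these correlations cannot decide whether the library numbers pair the samples. The fit with the replicate block called 0 members and 6 genes. The median log2 fold change of the members ran from -1.25 to -0.88 with libraries left out, and the mitochondrial minus peroxisomal difference from -0.99 to -0.69. With the most abundant transcript alone the Acsl4 to Acsl1 ratio (log2) differed by 3.38 instead of 1.54, with both genes cut to 1 transcript. The share of the Acsl4 transcript used ran from 3.44% to 69.6% within the controls, so the 3.38 is uncertain. The count of members below all controls relative to cardiomyocyte markers, 23, was 2 with 4 markers as the reference and 27 with the other 7. The 4 were the markers of lowest fold change in these data, so the direction of both shifts was set by that choice. The 3 libraries per genotype limit the precision of these tests.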
